A study of Mus musculus with 8 samples.

Results

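A set of 8 carbohydrate sulfotransferase genes, Chst1, Chst2, Chst3, Chst7, Chst11, Chst12, Chst14 and Chst15, was followed in cultured mouse islets. They were 8 of the 14 Chst genes in the count tables, which hold 54532 genes, and all 8 passed the filter on low counts as did 17055 genes in all. The set was built around Chst1, which was selected on its own measured values: its fall with DMXAA in wild-type islets and the difference of that effect from the one in islets labelled as knockout. Values of Chst1 are therefore given as a description, without p-values, and tests are given for the other 7 members, which were listed with earlier results of these data known.

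Islets, which hold the endocrine cells of the pancreas, came from wild-type mice and from mice labelled STING KO (Sting-/-), all aged 25 to 30 weeks. After hand picking and a night of recovery they were held for 3 h with the solvent DMSO or with DMXAA at 50 µg/mL. DMXAA is an agonist of mouse STING, an adaptor protein through which DNA in the cytosol switches on interferon genes. The 4 groups were wild-type DMSO, wild-type DMXAA, STING KO DMSO and STING KO DMXAA, with 2 poly(A) RNA libraries each. The knockout allele is not described in the labels, and nothing there says whether both libraries in a group are from different mice. The p-values therefore reflect library-to-library spread only, some of which may be technical.

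Carbohydrate sulfotransferases sit in the Golgi membrane and move sulfate from the donor PAPS onto sugars of glycosaminoglycan chains and glycoproteins. Where the sulfate is placed helps decide which growth factors, chemokines, selectins and other lectins the finished chain can bind. Chst1 sulfates galactose of keratan sulfate and of sialylated lactosamine, Chst2 sulfates N-acetylglucosamine in L-selectin ligands, and the other 6 act on chondroitin and dermatan sulfate.

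The start regions of Chst1, on which the set was built, and of Chst2 and Chst15, the other members with a called effect, are printed here because the window of Chst1 holds far fewer CpGs than those of the other members. Each is the RefSeq window (GRCm38.p6) from 250 bases before to 50 after an annotated start, written 5′ to 3′ on the gene's strand, with every CpG in capitals. Chst1 lies at chr2:92600867-92601166 on the plus strand, Chst2 at chr9:95407221-95407520 on the minus strand and Chst15 at chr7:132317179-132317478 on the minus strand.
Chst1: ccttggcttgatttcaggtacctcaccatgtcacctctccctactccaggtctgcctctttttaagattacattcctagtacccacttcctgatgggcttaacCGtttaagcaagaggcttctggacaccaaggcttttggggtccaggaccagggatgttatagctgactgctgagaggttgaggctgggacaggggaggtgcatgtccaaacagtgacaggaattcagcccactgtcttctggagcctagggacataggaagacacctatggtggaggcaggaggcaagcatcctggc
Chst2: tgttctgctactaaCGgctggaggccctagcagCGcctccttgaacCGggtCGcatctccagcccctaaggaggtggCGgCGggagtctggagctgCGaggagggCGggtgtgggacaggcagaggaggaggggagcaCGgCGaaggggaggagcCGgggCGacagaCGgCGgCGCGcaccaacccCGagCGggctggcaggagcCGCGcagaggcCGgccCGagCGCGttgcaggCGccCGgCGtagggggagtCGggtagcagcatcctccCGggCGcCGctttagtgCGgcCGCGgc
Chst15: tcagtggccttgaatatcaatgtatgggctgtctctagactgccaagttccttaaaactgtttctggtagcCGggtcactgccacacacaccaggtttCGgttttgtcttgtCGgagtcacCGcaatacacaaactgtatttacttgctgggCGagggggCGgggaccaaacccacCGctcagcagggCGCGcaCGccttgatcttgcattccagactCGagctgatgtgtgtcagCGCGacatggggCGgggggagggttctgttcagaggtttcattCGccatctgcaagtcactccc

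The Chst1 window held 1 CpG in 300 bases at 52.7% GC, 0.05 of the number that its base composition would give. The Chst2 window held 34 CpGs at 73% GC, a ratio of 0.88, and the Chst15 window 15 at 55% GC, a ratio of 0.66. Among the other members the count was 12 for Chst7, 18 for Chst14, 22 for Chst3, 24 for Chst12 and 34 for Chst11, against a median of 7 over all 32851 windows. A count as low as that of Chst1 was found in 14.1% of them. Annotated starts differ between sources: the RefSeq start of Chst1 lies 1410 bases inside the gene as GENCODE draws it, that of Chst2 lies 548 bases outside, and Chst15 has a second RefSeq window, with 24 CpGs, 202 bases downstream.

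The 9 windows of the 8 members were searched on both strands for 6 motifs. The GC box, GGGCGG, was found in 8 of 9 windows, all but that of Chst1, and in 35.7% of all windows. No member window held the interferon-stimulated response element GAAANNGAAA (3.44% of all windows), the gamma-activated site TTCNNNGAA (8.3%), the NF-kB site GGGANTTTCC (0.411%), the AP-1 site TGANTCA (7.81%) or the TATA box TATAAA (13.6%). The motifs did not overlap each other in the members, since the GC box alone was found. These counts describe the letters in the windows only.

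Libraries held between 15624020 and 19601850 counts. The mRNA of the targeted gene, Sting1 (Tmem173 in the annotation), was no lower under the knockout label: with DMSO it had 39 and 41 counts in wild type and 48 and 19 under the knockout label, and with DMXAA it had 23 and 39 and then 35 and 27. Those libraries are therefore called knockout-labelled, and every direction drawn from the genotype rests on that label. The interferon-response genes Ifnb1, Cxcl10, Ifit1, Rsad2, Oasl1 and Isg15 were higher with DMXAA in wild type in 6 of 6 cases past the threshold, with a median log2 fold change of 5.46. In knockout-labelled islets 0 of these 6 passed in edgeR, 0 had an unadjusted p under 0.05 and 0 passed in DESeq2, and their median was 0.36. Beta-cell markers were present in every library, with 0 of 12 at zero.

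Chst1, the keratan sulfate galactose sulfotransferase, was low in wild-type islets with DMXAA and in no other group. Levels are in CPM, which are counts scaled to a common library size with edgeR's TMM factors. In wild type it stood at 7.52 and 8.02 CPM with DMSO, then at 0.915 and 1.51 CPM with DMXAA, from 143 and 163 counts against 17 and 29. In knockout-labelled islets it stood at 6.14 and 3.85 CPM with DMSO, then at 9.64 and 6.96 CPM with DMXAA. The highest wild-type DMXAA library was thus below the lowest of the 6 others, and the knockout-labelled groups were ordered the opposite way without overlap.

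The fitted log2 fold change of Chst1 with DMXAA was -2.67 (SE 0.36, 95% interval -3.44 to -1.9) in wild type, a 6.36-fold lower level. In knockout-labelled islets it was 0.75 (SE 0.3, interval 0.11 to 1.39), and the difference between the effects was 3.42 on the log2 scale (SE 0.47). Between genotype labels, Chst1 differed by -0.65 (SE 0.3) with DMSO and by 2.77 (SE 0.36) with DMXAA, knockout-labelled minus wild type. Leaving out each library in turn gave -3.08 to -2.36 for the wild-type effect, 3.11 to 3.83 for the difference of effects and 2.46 to 3.18 between labels with DMXAA. The smaller values rested more on single libraries: the knockout-labelled effect was 1.12 without the first and 0.45 without the second knockout-labelled DMSO library, and 0.5 without the first knockout-labelled DMXAA library. The DMSO difference was -1.03 and -0.36 without those same DMSO libraries. These comparisons share libraries with each other, so their values are not separate evidence. The SEs, intervals and leave-one-out values of Chst1 take no account of its choice on these data, and they are not a test. The gene, ENSMUSG00000027221, spans chr2:92599707-92615250 (mm10, GENCODE M21) on the plus strand with 2680 exonic bases, and no other annotated gene shared its exons.

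**Figure D1:**
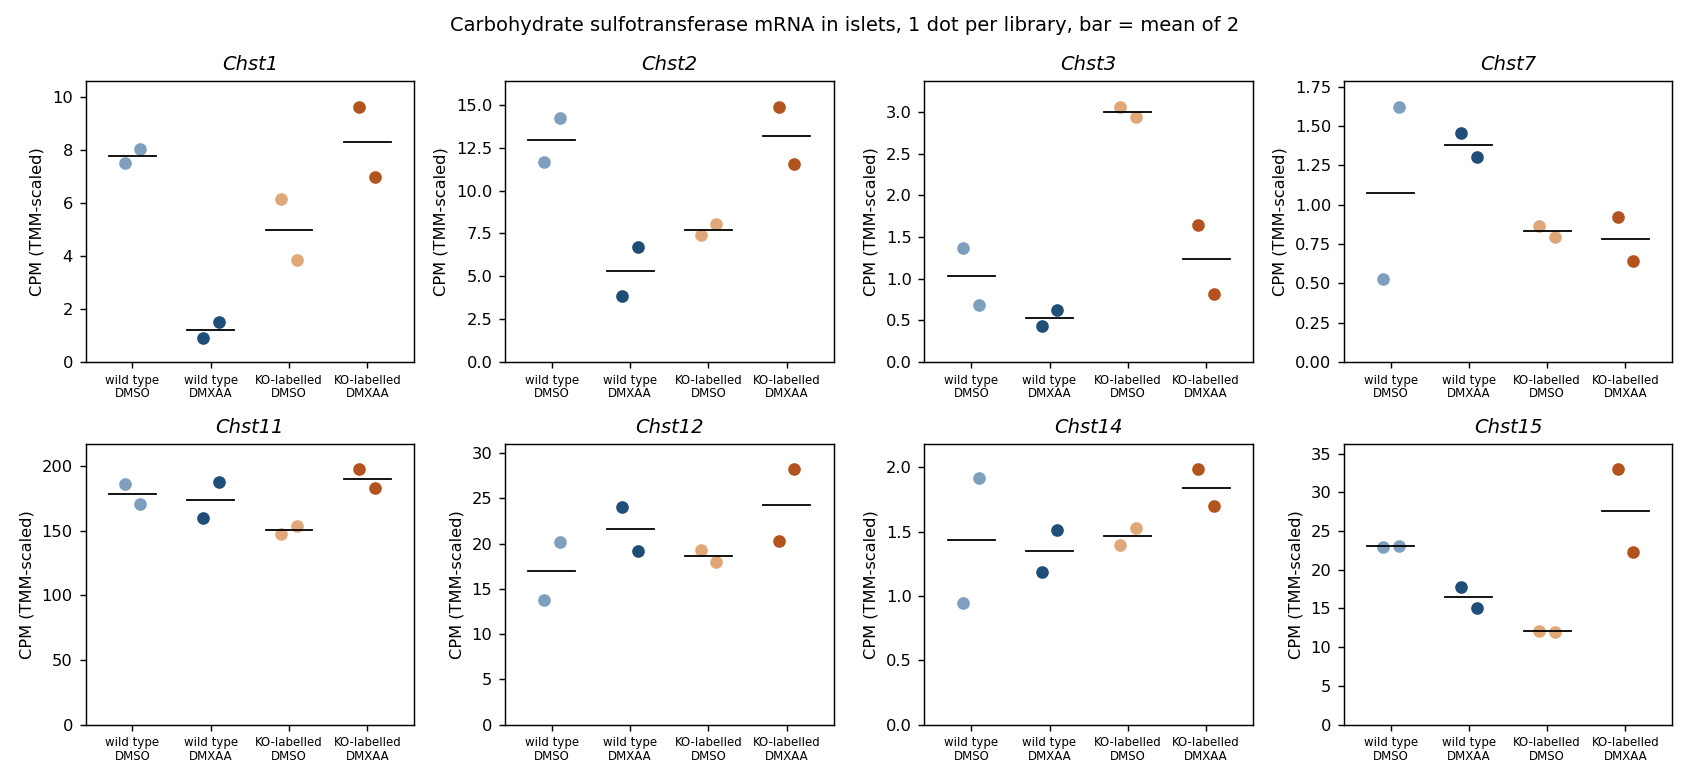
CPM (y axis, from 0, TMM-scaled) of the 8 members in each of the 8 libraries by group (x axis); dots are libraries and bars the mean of 2. Chst1 lies at 0.915 and 1.51 CPM with DMXAA in wild type and at 3.85 CPM or more elsewhere, while Chst11 stays between 147 and 198 CPM in all libraries.

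Chst2, an N-acetylglucosamine sulfotransferase that helps build L-selectin ligands, followed a similar course with a smaller range. In wild type it stood at 11.7 and 14.2 CPM with DMSO, then at 3.88 and 6.71 CPM with DMXAA. Under the knockout label it stood at 7.4 and 8.04 CPM with DMSO, then at 14.9 and 11.5 CPM with DMXAA. Both DMXAA libraries were below both DMSO libraries in wild type, and above them under the knockout label. The wild-type DMXAA libraries were also the lowest of the 8.

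In wild type Chst2 fell 2.44-fold with DMXAA (log2 fold change -1.29, SE 0.27, edgeR adjusted p = 0.0255). The knockout-labelled effect of 0.78 (SE 0.26) did not pass (adjusted p = 0.403), but the effects differed by 2.06 (SE 0.37, adjusted p = 0.0126). With DMXAA, the knockout-labelled level was 2.5-fold above the wild-type level (log2 1.32, adjusted p = 0.0171), and with DMSO the difference of -0.74 did not pass (adjusted p = 0.3). Leaving out the first wild-type DMXAA library ended the calls in wild type (-0.95, adjusted p = 0.369), in the difference of effects (1.73, 0.0728) and between labels with DMXAA (0.98, 0.267). The wild-type call also ended without either wild-type DMSO library (adjusted p = 0.0718 and 0.0586) or either knockout-labelled DMSO library (0.0652 and 0.0671), and the call on the difference without either knockout-labelled DMSO library (0.108 and 0.0946) or the first knockout-labelled DMXAA library (0.0517), which also ended the call between labels (0.0712).

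Chst15 adds a further sulfate to chondroitin that is already sulfated, which makes the highly charged chondroitin sulfate E. In wild type it stood at 23.0 CPM in both DMSO libraries and at 17.8 and 15.1 CPM with DMXAA. Under the knockout label its values were 12.1 and 11.9 CPM with DMSO, then 33.0 and 22.2 CPM with DMXAA. The knockout-labelled DMSO libraries were the lowest of the 8, unlike Chst1 and Chst2, where the wild-type DMXAA libraries were. In the start windows above, Chst15 and Chst2 were both richer in CpG than Chst1.

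With DMXAA, Chst15 rose 2.3-fold in knockout-labelled islets (log2 fold change 1.2, SE 0.21, edgeR adjusted p = 0.0286), whereas its wild-type effect of -0.49 (SE 0.2) did not pass (adjusted p = 0.384). The effects differed by 1.69 (SE 0.29, adjusted p = 0.00938). Between labels it differed by -0.93 with DMSO (adjusted p = 0.112) and by 0.75 with DMXAA (adjusted p = 0.0797), neither past the threshold; DESeq2 called both (adjusted p = 0.0166 and 0.0486), as did the fit without the filter on low counts (0.0201 and 0.0494). The knockout-labelled call ended without either DMSO library of that label (adjusted p = 0.314 and 0.454) or without its first DMXAA library (0.121). The difference of effects missed the threshold without either knockout-labelled DMSO library (0.0801 and 0.0939) and without the second wild-type DMXAA library (0.054). Without the first or second knockout-labelled DMXAA library the DMSO difference passed (0.0407 and 0.0384), and without the second so did the DMXAA difference (1, adjusted p = 0.0179). Exons of Chst15 share 1206 bases with the antisense gene Gm10584, and whether the counting used strand is not given in the sources used here.

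Chst11 and Chst12, the chondroitin 4-sulfotransferases, did not pass the threshold in any of the 5 comparisons. Chst11, the most abundant member, stood at 186 and 170 CPM with DMSO, then 160 and 188 CPM with DMXAA in wild type, and at 147 and 154 CPM with DMSO, then 198 and 183 CPM with DMXAA under the knockout label. The groups overlapped in wild type, where the log2 fold change was -0.04 (95% interval -0.35 to 0.28), and did not under the knockout label (0.34, interval 0.02 to 0.66, edgeR adjusted p = 0.633). Chst12 stood at 13.8 and 20.1, 24.1 and 19.1, 19.3 and 17.9, and 20.2 and 28.2 CPM in the same order of groups. Its effects were 0.35 (interval -0.14 to 0.83) and 0.38 (interval -0.11 to 0.86), and their difference was 0.03 (interval -0.65 to 0.71).

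Chst3 and Chst7, the chondroitin 6-sulfotransferases, were near 1 CPM in most groups. Chst3 stood at 1.37 and 0.689 CPM with DMSO, then 0.431 and 0.624 CPM with DMXAA in wild type, and at 3.07 and 2.94 CPM with DMSO, then 1.65 and 0.819 CPM with DMXAA under the knockout label. The knockout-labelled DMSO libraries were above all others, by a log2 difference of 1.55 from wild-type DMSO (SE 0.44) that did not pass (edgeR adjusted p = 0.211). Summed CPM of 12 B and T lymphocyte markers was also highest there, at 39.4 and 39.5 against 2.48 to 10.2 in the 6 other libraries. In those other libraries 1 to 5 of the 12 markers were at zero, and in the knockout-labelled DMSO libraries 0 were. The part of lymphocytes in the level of Chst3 was not tested. With DMXAA, Chst3 had a log2 fold change of -0.94 in wild type (adjusted p = 0.54) and of -1.25 under the knockout label (adjusted p = 0.425), the only member with negative values of this size in both.

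Chst7 ranged from 0.526 to 1.62 CPM, and both of these values came from the wild-type DMSO group. Its effect was 0.34 in wild type (95% interval -0.76 to 1.43) and -0.06 under the knockout label (interval -1.4 to 1.27), so a rise of 2-fold was within the interval for both. Chst14, the dermatan 4-sulfotransferase, ranged from 0.947 to 1.99 CPM over the 8 libraries. Its effects were -0.1 (interval -1.05 to 0.86) in wild type and 0.33 (interval -0.6 to 1.27) under the knockout label, and the lowest edgeR adjusted p over the 5 comparisons was 0.703.

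**Figure D2:**
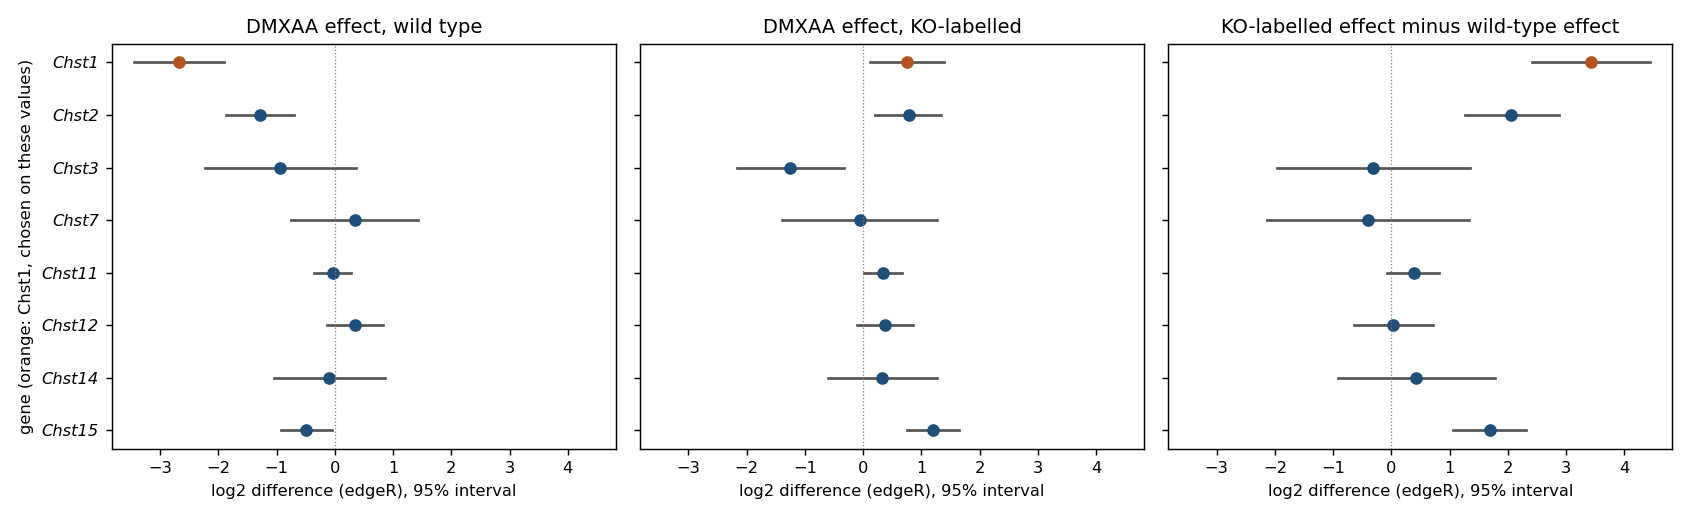
Log2 difference from edgeR (x axis) with its 95% interval (line) for each member (y axis), for DMXAA against DMSO in wild type, the same under the knockout label, and the second minus the first. Chst1, in orange, was chosen on these values, and its intervals are not a test. Chst2 (2.06) and Chst15 (1.69) lie to the right of 0 in the last panel. The intervals of Chst3, Chst7, Chst11, Chst12 and Chst14 include 0 there.

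The calls among the members are set against the share of all genes called. In wild type with DMXAA, 1 of the 7 members other than Chst1 fell and 0 rose, where 1.48% of all genes tested were called. Under the knockout label 1 of 7 rose and 0 fell, against 0.375% of all genes, and 2 of 7 were called in the difference of effects, against 1.20%. Between labels 0 of 7 were called with DMSO, against 0.223%. There 3 of the 7 had an unadjusted edgeR p under 0.05, as did 2092 of all 17055 genes, and DESeq2 called 1, Chst15. Between labels with DMXAA edgeR called 1 of 7, against 2.39%. With 7 members, 1 call in any of these is a larger share than the background, but it is a single gene and the list was made with results known.

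By overlap alone, 3 of the 7 had both DMXAA libraries below both DMSO libraries in wild type, against 23.9% of all genes, and 0 had both above, against 22.5%. Under the knockout label 5 of 7 had both DMXAA libraries above, against 18.1% of all genes, and 1, Chst3, had both below, against 17.7%. The 5 were Chst2, Chst11, Chst12, Chst14 and Chst15. The median log2 fold change of the 7 was -0.1 in wild type and 0.34 under the knockout label.

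The order of levels was compared per kilobase of exon. In wild-type DMSO islets Chst11 led at 32.3 ± 2.04 CPM per kb (SD, n = 2), followed by Chst12 at 7.18 ± 1.9, Chst15 at 3.41 ± 0.0039 and Chst1 at 2.9 ± 0.131. Chst2 came next at 1.77 ± 0.245, and Chst14 at 0.686 ± 0.329 and Chst7 at 0.487 ± 0.352 overlapped. Chst3 was last at 0.158 ± 0.0739. With DMXAA in wild type Chst1 moved from rank 4 to rank 7, at 0.452 ± 0.157, on average below Chst2, Chst14 and Chst7, which overlapped in neighbouring pairs. Chst1 overlapped Chst2 as well, at 0.34 and 0.56 against 0.53 and 0.92 CPM per kb. In knockout-labelled DMSO islets Chst1 and Chst15 overlapped at ranks 3 and 4, at 1.86 ± 0.603 and 1.78 ± 0.0199, and Chst3 was above Chst7. With DMXAA under that label Chst15, at 4.09 ± 1.12, and Chst1, at 3.1 ± 0.705, overlapped again.

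Chst11 alone made up 70.6% to 80.4% of the summed CPM of the 8 members in every library. Chst1 made up 3.07% and 3.34% in wild-type DMSO libraries and 0.438% and 0.645% in wild-type DMXAA libraries. The sum itself lay between 198 and 280 CPM, lowest in the knockout-labelled DMSO and highest in the knockout-labelled DMXAA libraries.

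**Figure D3:**
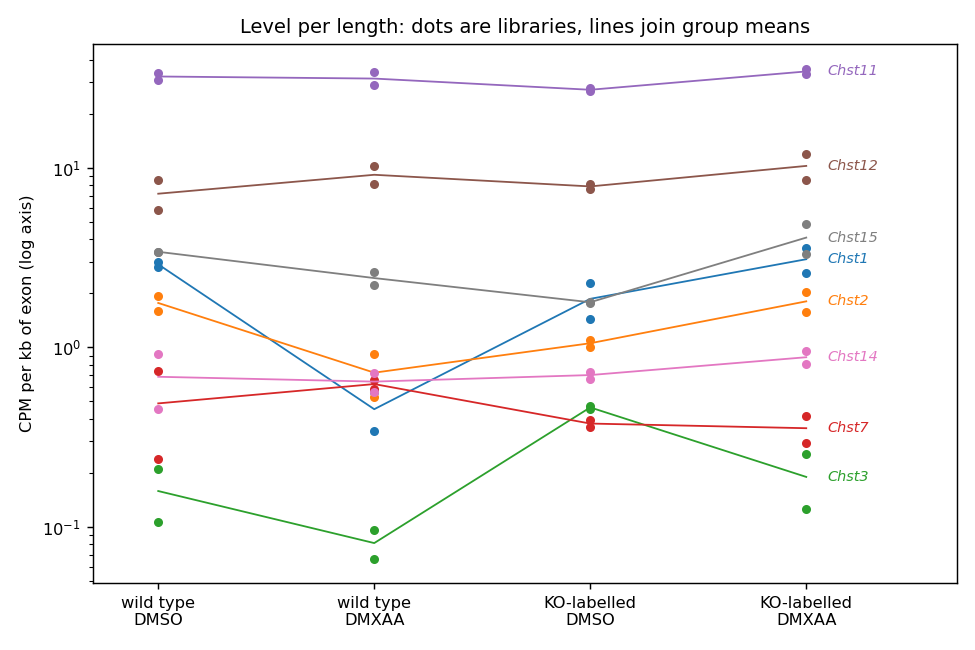
CPM per kilobase of exon (y axis, log axis) of the 8 members in the 4 groups (x axis); dots are libraries, and lines join group means and mark no order in time. Chst11 is on top in each group (27.2 to 34.4 on average), and Chst1 drops from 2.9 to 0.452 in wild type with DMXAA.

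Endothelial cells line islet capillaries, and their markers are given beside Chst1, Chst2 and Chst15. The summed CPM of 16 endothelial markers was 976 and 1241 with DMSO and 774 and 805 with DMXAA in wild type, and 915 and 835 with DMSO and 1535 and 1398 with DMXAA under the knockout label, with 0 of 16 markers at zero in each library. In wild type 15 of the 16 had a negative log2 fold change with DMXAA (median -0.46). Of these, 3 fell past the threshold, against 1.48% of all genes called. Under the knockout label all 16 were positive (median 0.68) and 3 passed, against 0.375%. In the difference of effects all 16 were positive (median 1.14) and 8 passed, against 1.20%. Between labels with DMXAA all 16 were higher under the knockout label (median 0.75) and 10 passed, against 2.39%. With DMSO 15 of the 16 were lower under that label (median -0.27) and 0 passed. In bulk RNA fewer cells of a type and less RNA per cell cannot be told apart.

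Per 1000 CPM of endothelial markers, Chst1 stood at 7.71 and 6.46 with DMSO and at 1.18 and 1.88 with DMXAA in wild type, and at 6.7 and 4.61 with DMSO and 6.28 and 4.98 with DMXAA under the knockout label. On this scale the wild-type DMXAA libraries remained below all others, and the knockout-labelled groups overlapped. Chst2 stood at 11.97 and 11.5, 5.01 and 8.34, 8.09 and 9.63, and 9.71 and 8.25 in the same order, so that its wild-type groups stayed apart and its knockout-labelled groups overlapped. Unlike Chst1, its wild-type DMXAA libraries were no longer the lowest: 8.34 in the second of them was above 8.09 and 8.25 under the knockout label. Chst15 stood at 23.6 and 18.6, 22.9 and 18.8, 13.3 and 14.3, and 21.5 and 15.9: its wild-type groups overlapped, and its knockout-labelled DMSO libraries remained the lowest. The cells that express these genes are not known from bulk RNA, and the part of endothelial cells in the levels was not tested. The ratios are a description, and for Chst1 they rest on the values it was chosen by. No such ratio was taken to the other marker lists.

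Other marker lists also differed between libraries. Fibroblast and stellate markers (16 genes) came to 492 and 323 CPM with DMSO, then 182 and 326 with DMXAA in wild type, and 254 and 242 with DMSO and 457 and 413 with DMXAA under the knockout label, with 0 of 16 at zero. With DMXAA 14 of the 16 were negative in wild type (median -0.75) and 15 of 16 positive under the knockout label (median 0.85). In edgeR 0 passed under either label. In the difference of effects all 16 were positive, with a median of 1.39, above that of the endothelial markers. Of these, 0 passed in edgeR and 10 had an unadjusted edgeR p under 0.05, as did 1485 of all 17055 genes. DESeq2 called 1 of the 16, Fn1. Macrophage markers (15 genes, 0 or 1 at zero per library) lay between 77.0 and 190 CPM, and 12 of 14 tested were positive in that difference (median 0.98). Acinar markers (16 genes) ranged from 341 CPM in a knockout-labelled DMXAA library to 6359 CPM in a wild-type DMSO library, with 0 to 4 at zero. All 14 tested were negative in the difference of effects (median -2.12), as were all 8 B and T lymphocyte markers tested (median -2.72). Of both lists 0 passed there in edgeR. The part of these cell types in the levels of the members was not tested.

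**Figure D4:**
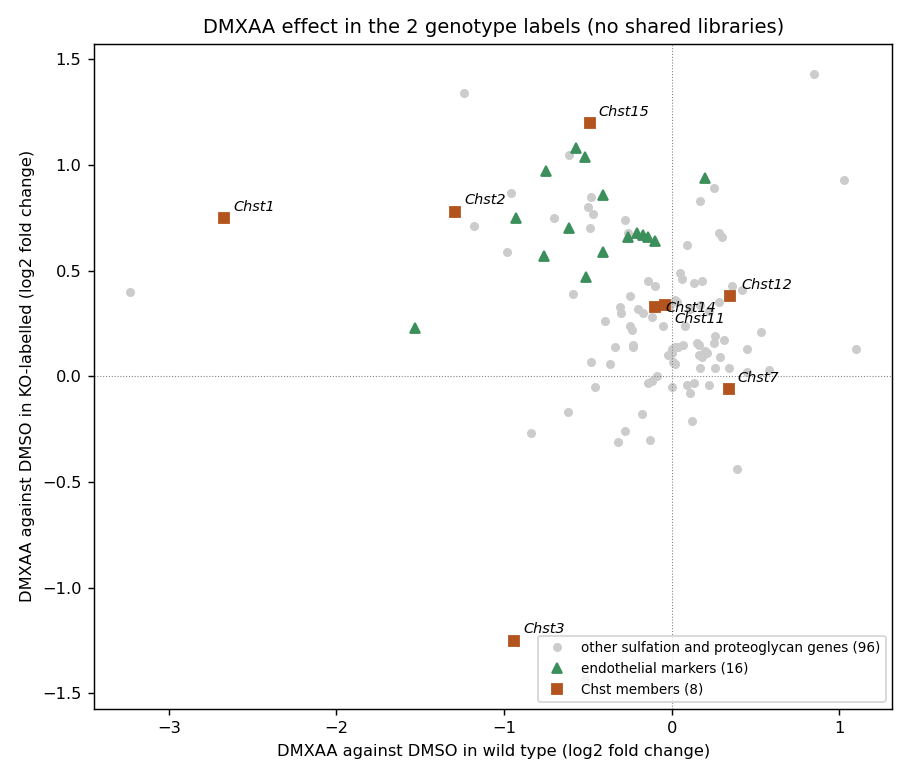
Log2 fold change with DMXAA in wild type (x axis) and under the knockout label (y axis), from libraries that are not shared, for the 8 members (squares), 16 endothelial markers (triangles) and 96 other sulfation and proteoglycan genes (grey dots). Chst1 (-2.67 and 0.75) and Chst2 (-1.29 and 0.78) lie left of zero and above it, as do 15 of the 16 endothelial markers. Fibroblast and stellate markers, most of them with the same signs, are not drawn as a list. Chst3 lies below zero on both axes. The grey dot at -3.23 is the brain proteoglycan gene Ncan, named after its value was seen.

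A further 6 Chst genes were in the files outside the set, of which 2 passed the filter; in each of the 5 comparisons 0 of these 2 were called by edgeR or DESeq2, and 0 had an unadjusted p under 0.05. Chst10, which makes the HNK-1 epitope, stood between 7.81 and 10.9 CPM in the 8 libraries, with log2 fold changes of 0.16 (95% interval -0.33 to 0.65) in wild type and 0.15 (interval -0.34 to 0.65) under the knockout label. Chst8, which sulfates N-acetylgalactosamine on glycoprotein hormones, stood between 0.646 and 1.58 CPM, with effects of -0.84 (edgeR adjusted p = 0.553) and -0.27 (0.982). The remaining 4 did not pass the filter. Chst4, a selectin-ligand enzyme of high endothelial venules, had 0 counts in all 8 libraries, which allows up to 0.0203 CPM over their 147318315 counts, for counting error only. Chst5 had 2 counts in 1 library, Chst9 had 1 to 6 counts and Chst13 had 0 to 3.

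Around the members, 9 lists of genes that build, sulfate, carry or break down these chains held 115 genes, of which 96 were tested. With DMXAA in wild type edgeR called 2 of the 96 higher and 1 lower, against 1.48% of all genes called. The median log2 fold change of the 96 was 0.01. Under the knockout label 1 rose and 0 fell (median 0.2), against 0.375%. In the difference of effects 3 were positive past the threshold and 0 negative (median 0.19), against 1.20%. Between labels 0 passed with DMSO, against 0.223%. Of the 96, 13 had an unadjusted edgeR p under 0.05 there, as did 2092 of all 17055 genes, and DESeq2 called 1, Podxl. Between labels with DMXAA, 2 were higher and 1 lower under the knockout label in edgeR, against 2.39% of all genes called. DESeq2 called 6 higher under the knockout label, 4 positive and 1 negative in the difference of effects, and 4 higher and 1 lower between labels with DMXAA. Every edgeR call fell in the list of 25 tested core proteins.

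Core proteins were called in both directions. Esm1, the endothelial dermatan sulfate proteoglycan endocan, stood at 159 and 151 CPM with DMSO, then 65.7 and 71.4 CPM with DMXAA in wild type, and at 118 and 99.99 CPM with DMSO, then 182 and 174 CPM with DMXAA under the knockout label. It fell in wild type (log2 fold change -1.18, SE 0.15, edgeR adjusted p = 0.000421), its effects differed by 1.88 (SE 0.21, adjusted p = 0.000383), and it was higher under the knockout label with DMXAA (1.37, adjusted p = 9.44e-05). As for Chst1 and Chst2, its lowest libraries were those of wild type with DMXAA. Sdc4, the heparan sulfate proteoglycan syndecan 4, rose from 36 and 43 CPM to 84.7 and 84.1 CPM in wild type (1.1, SE 0.18, adjusted p = 0.00418). Podxl, the sialomucin podocalyxin, rose under both labels, from 61.3 and 73.4 CPM to 135 and 140 CPM in wild type (1.03, adjusted p = 0.0017) and from 46.9 and 40.7 CPM to 85.0 and 81.4 CPM under the knockout label (0.93, adjusted p = 0.024), and was lower under that label with DMXAA (-0.73, adjusted p = 0.0176).

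Thbd, the endothelial thrombomodulin that can carry chondroitin sulfate, had effects of -0.48 in wild type (edgeR adjusted p = 0.36) and 0.85 under the knockout label (0.082), which differed by 1.33 (SE 0.26, adjusted p = 0.024), and it was higher under the knockout label with DMXAA (0.88, adjusted p = 0.0226). Hspg2, the basement membrane proteoglycan perlecan, had effects of -0.5 (0.362) and 0.8 (0.129), which differed by 1.31 (SE 0.28, adjusted p = 0.0382). The highest library of both genes was a knockout-labelled DMXAA library, at 62.7 CPM for Thbd and 89.4 CPM for Hspg2. Esm1, Thbd and Hspg2 were negative in wild type and positive under the knockout label, as were 15 of the 16 endothelial markers. Most fibroblast and stellate markers had these signs too: 14 of 16 were negative in wild type and 15 of 16 positive under the knockout label.

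In the 8 other lists 0 of 71 genes passed with DMXAA in wild type by edgeR or by DESeq2. Of the 71, 3 had an unadjusted edgeR p under 0.05, as did 2025 of all 17055 genes. Of each list but the other Chst genes, given above, the 2 genes with the smallest p are named. Of the chondroitin and dermatan chain enzymes (9 tested), Csgalnact2, which starts the chain, had a log2 fold change of -0.62 (edgeR adjusted p = 0.244) and Chsy1, which extends it, one of -0.59 (adjusted p = 0.445). Of the linker enzymes (6 tested), these were Xylt2 at 0.45 and B3gat3 at 0.26 (adjusted p = 0.489 and 0.556). Of the heparan sulfate enzymes (18 tested), they were the sulfotransferases Hs3st6 at 0.53 and Hs2st1 at -0.34 (0.421 and 0.44).

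The keratan sulfate and selectin ligand chain, on which Chst1 and Chst2 act, had 11 genes tested, led by the sialyltransferases St3gal3 at 0.45 and St3gal4 at -0.49 (edgeR adjusted p = 0.398 and 0.538), and its median was 0.02. In the supply of the sulfate donor (8 tested), Impad1, a Golgi phosphatase of the donor's by-product, had -0.48 (adjusted p = 0.296) and the donor transporter Slc35b3 -0.28 (0.548). Among other Golgi sulfotransferases (4 tested), the tyrosine sulfotransferases Tpst2 and Tpst1 had 0.21 and 0.13 (0.596 and 0.752). Among sulfatases and other breakdown enzymes (13 tested), Arsb, which removes sulfate from dermatan and chondroitin, had 0.42 and Ids, which acts on iduronate, -0.37 (0.443 and 0.445).

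**Figure D5:**
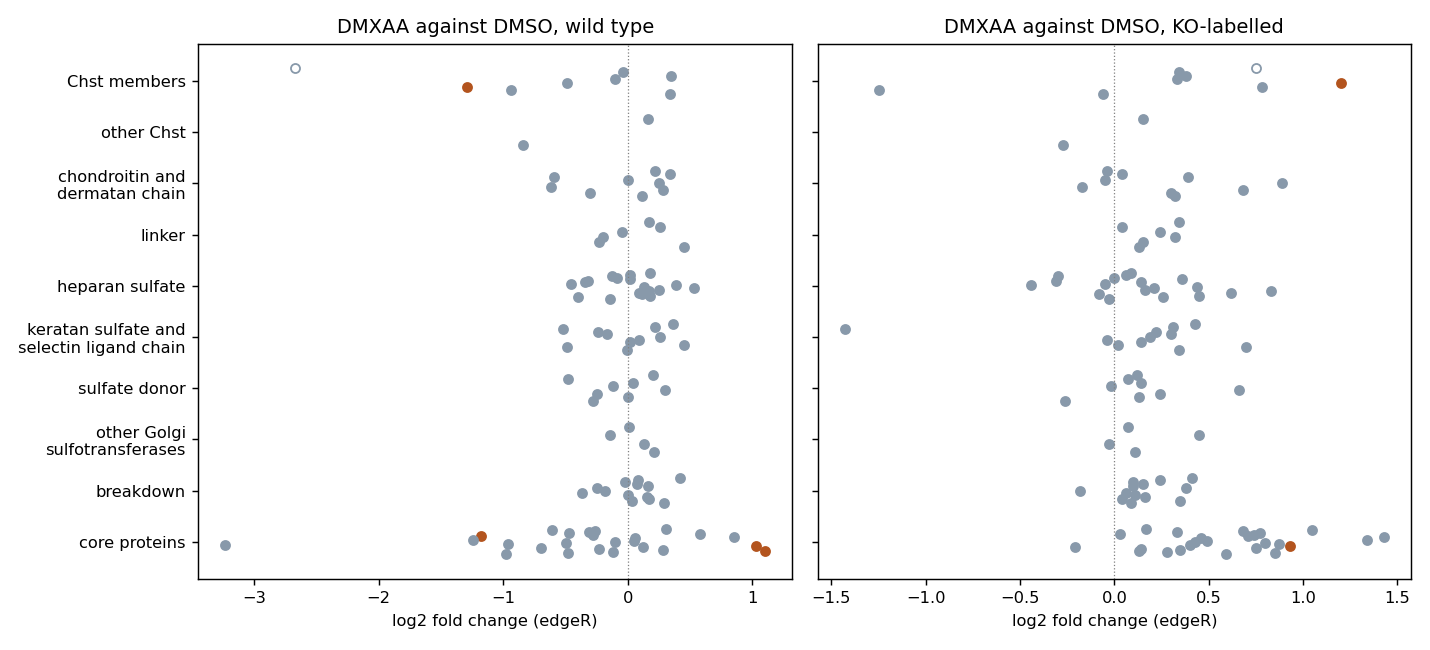
Log2 fold change with DMXAA (x axis, edgeR) of each tested gene of the members and of the 9 surrounding lists (y axis), in wild type and under the knockout label; orange dots passed an adjusted p of 0.05 and the open circle is Chst1, shown without a test. Among the surrounding lists, orange dots occur in the core proteins only (Esm1 at -1.18, Podxl at 1.03 and Sdc4 at 1.1 in wild type).

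The genes whose log2 CPM followed that of Chst1 most closely over the 8 libraries, of 14423 with a mean of at least 1 CPM, were Dusp6 (Pearson r = 0.989), Apln (0.984), Cyp39a1 (0.984), Clec14a (0.972) and Klf10 (0.97). Dusp6 encodes a phosphatase of ERK kinases, Apln the peptide apelin, Cyp39a1 an oxysterol hydroxylase, Clec14a an endothelial lectin-like receptor and Klf10 a zinc finger factor. Dusp6, for example, averaged 64 CPM with DMSO, then 14.3 with DMXAA in wild type, and 38 and 73.3 under the knockout label. Pearson r does not reflect the size of a change. Klf10 averaged 48.1 and 24.0 CPM in wild type and 45.2 and 51.2 under the knockout label. For Cyp39a1 the averages were 2.82 and 1.58, then 2.43 and 2.73. Without the 2 wild-type DMXAA libraries the r values of the 5 genes, in the order named, were 0.937, 0.866, 0.872, 0.902 and 0.646 over 6 libraries. Among the members, Chst2 was closest to Chst1 (0.916, and 0.824 without those libraries), Chst15 had 0.469 and 0.882, and Chst7 had -0.5 and 0.201. All these points share the groups, so the values are a description.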

How the data were processed

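Poly(A) RNA of 8 islet libraries was measured, and the deposited files hold raw counts per Ensembl gene, 1 file per library. The submitters' processing notes name HISAT2, HTSeq and the mouse build mm10 (versions, annotation release, strand setting: not given in the sources used here). From these counts, symbols and exonic lengths were added from GENCODE M21 (54495 of 54532 identifiers matched). Genes were filtered with filterByExpr by group, libraries were scaled by TMM, and edgeR 4.0.16 in R 4.3.3 fitted a model with a term for each group to the 8 libraries together (quasi-likelihood F-test, robust, newer form, 4 residual degrees of freedom). The 5 comparisons were adjusted by Benjamini-Hochberg over 17055 genes, with a threshold of 0.05. Alternatives were size factors of the RLE kind, DESeq2 1.42.0, no filter, the older form of the fit, a replicate block and leaving out each library.

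Members and lists were chosen with earlier results of these data known. All 8 members are reported in every group. Of the surrounding lists, every gene called in any comparison is named, plus the 2 with the smallest p in wild type; the 5 genes most like Chst1 were ranked by Pearson r over log2 CPM with a prior count of 2. No pair of libraries of a group was a copy (chi-square per degree of freedom 6.83 to 53.8). Start windows came from RefSeq, and all 8 members matched by symbol. The scripts were tested on simulated data.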

Additional observations from a re-analysis of the deposited data

Results flagged for a closer look

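By the test of the difference itself, the effect of DMXAA differed between the genotype labels for 2 of the 7 members other than Chst1. It also differed for 3 of the 96 surrounding genes tested, against 1.20% of all genes. Chst1 is given beside them as a description only, because that gene was chosen on this value. The differences, knockout-labelled minus wild type on the log2 scale, were 3.42 for Chst1, 2.06 for Chst2, 1.69 for Chst15, 1.88 for Esm1, 1.33 for Thbd and 1.31 for Hspg2. These 6 were positive. In the same comparison all 16 endothelial markers (median 1.14), all 16 fibroblast and stellate markers (median 1.39) and 12 of 14 macrophage markers (median 0.98) were positive too. All 14 acinar markers tested (median -2.12) and all 8 B and T lymphocyte markers tested (median -2.72) were negative, with 0 past the threshold in edgeR. The part of these cell types in the differences was not tested. Of the 6 interferon-response genes, 5 differed in the opposite direction in edgeR, at -7.12 for Cxcl10, -5.25 for Rsad2, -4.94 for Oasl1, -4.91 for Ifit1 and -4.46 for Isg15. The remaining gene, Ifnb1, had a value of -10.41 (SE 5.46) that did not pass (edgeR adjusted p = 0.632). It had 0 counts in both wild-type DMSO libraries. DESeq2 called all 6 in this direction. Groups of 2 libraries are too small to look for a library that stands apart.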

How the results depend on the processing

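No called member effect changed sign under any alternative run. Over all genes, counts of calls moved by more than 1.5 times as follows. The ranges on leaving out a library span all such runs, also those that moved less. Under the knockout label 64 calls became 154 with DESeq2, 177 without the filter, 29 with the older fit and 3 to 129 on leaving out each library. With DMSO between labels 38 became 155, 159, 17 and 3 to 240. With DMXAA between labels 407 became 616 with DESeq2 and 205 to 674 on leaving out a library. In the difference of effects 204 became 312 with DESeq2 and 87 to 304 on leaving out a library. In wild type 253 ranged from 160 to 994 on leaving out a library. The cause was not tested.

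Replicate numbers are shared between groups, but the labels do not say that they mark a mouse or a day, and deviations of same-numbered libraries had correlations of -0.1 to 0.07. With a replicate block the calls numbered 259 in wild type, 61 under the knockout label, 217 in the difference, 56 with DMSO and 417 with DMXAA. The calls on Chst2 and Chst15 were the same with the block. Of 455 fold changes of the 7 tested members under these alternatives, 412 kept sign and side of the threshold, 17 lost a call and 7 gained one, all in Chst2 or Chst15, and 19 uncalled values of Chst3, Chst7, Chst11, Chst12 or Chst14 changed sign. The 65 of Chst1, which has no test, kept their sign. Counts limit Chst3, Chst7 and Chst14 most: the 95% interval of Chst7 in wild type ran from -0.76 to 1.43.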
